A study of Mus musculus with 20 samples.

Results

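The enzymes that lengthen and desaturate fatty acids were examined in mouse liver through the mRNA of 9 genes: the elongases Elovl1, Elovl2, Elovl3, Elovl5 and Elovl6, the front-end desaturases Fads1 and Fads2, and the stearoyl-CoA desaturases Scd1 and Scd2. They were selected by gene symbol and make up 9 of the 25444 loci in the deposited tables. All 9 were among the 13704 genes with enough counts to be tested. The data come from 20 livers in 4 groups of 5 mice, namely C57BL/6N (B6) females, B6 males, C3H/HeN (C3) females and C3 males. The mice were inbred, carried no transgene and received no treatment, and the left lateral lobe of each was taken at 20 weeks of age. Food was always available, and the standard diet was changed shortly before collection in every group. Females and males were kept in separate rooms, so an effect of sex and an effect of room cannot be told apart.

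Elongases run the condensation step that adds a unit from malonyl-CoA to an acyl-CoA in the endoplasmic reticulum, and this step sets which chain is extended. Elovl6 acts on palmitate and other products of fatty acid synthase, Elovl1 and Elovl3 on longer saturated and monounsaturated chains, and Elovl2 and Elovl5 on polyunsaturated chains. Fads2 and Fads1 insert double bonds near the carboxyl end of the essential fatty acids, with Fads2 acting before Fads1, and together with Elovl5 and Elovl2 they form the route to arachidonic and docosahexaenoic acid. Scd1 and Scd2 place the first double bond in saturated chains and yield oleate and palmitoleate. In liver many of these genes are known targets of the lipogenic factor SREBP-1c, and Elovl3 is known as a male-biased gene of mouse liver.

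The libraries held 27370921 to 46835745 counts each and were sequenced in 3 pools, with 1 or 2 mice of every group in each pool. Xist, which is transcribed from the inactive X chromosome, had 12349 to 25729 counts in each female and 0 to 11 in each male, and the Y-linked gene Ddx3y had 0 or 1 count in each female and 2340 to 4320 in each male. No pair of livers within a group agreed within sampling noise. A gene was called when its adjusted p (edgeR quasi-likelihood test, Benjamini-Hochberg over all genes tested) fell below 0.001 and its log2 fold change was above 0.5 or below -0.5. Levels of a gene are given in CPM, which are counts scaled to library size, and levels of different genes are compared only in TPM, which are also scaled by gene length. Of the genes called between the sexes, 50.9% were higher in females in B6 and 59.6% in C3, against 64.3% and 70.0% with upper-quartile normalization.

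In TPM, Scd1 had the highest mean level of the 9 genes in each group and Scd2 the lowest in each. In B6 females the order of mean TPM was Scd1 (1262), Fads2 (711), Elovl5 (491), Fads1 (307), Elovl2 (244), Elovl6 (34.3), Elovl1 (26.0), Elovl3 (11.1) and Scd2 (2.76). The ranges over the 5 mice overlapped between Scd1 and Fads2 and between Fads2 and Elovl5, but within each mouse this order held. They also overlapped between Fads1 and Elovl2 and between Elovl6 and Elovl1, where the order changed from mouse to mouse. In males Elovl3 moved up this order, to 822 ± 319 TPM (SD, n = 5) in B6 and 514 ± 147 TPM in C3. Scd1 alone took 0.146% to 1.88% of all counts of a library.

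**Figure D1:**
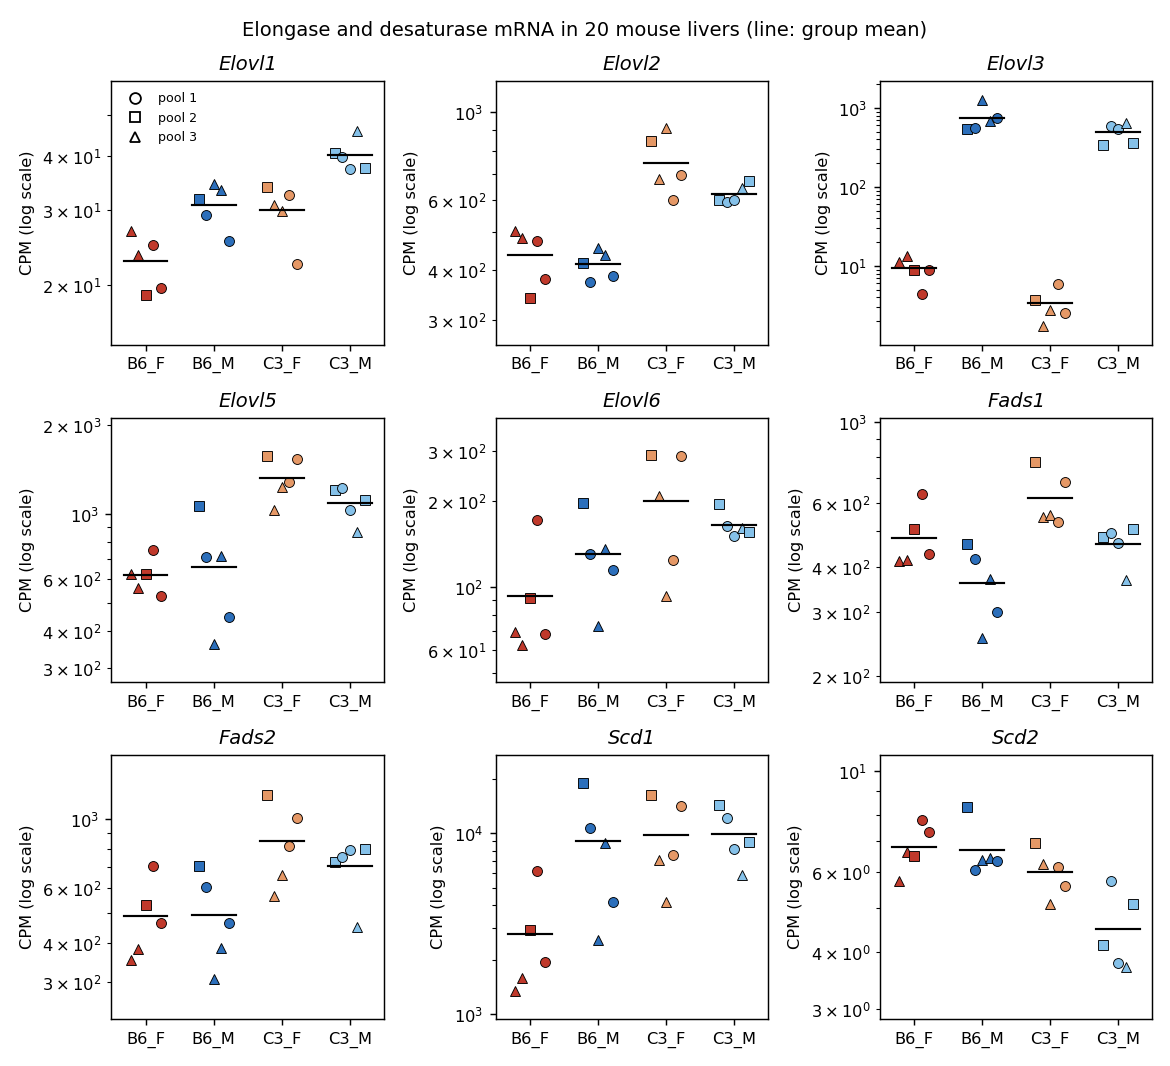
Level of each of the 9 genes in CPM (log axis) in 20 livers, with 1 point per mouse, its shape giving the sequencing pool, and a line at the mean of the 5 mice of a group. Elovl3 lies between 1.75 and 13.4 CPM in the females and between 337 and 1262 CPM in the males, and the points of Scd1 in B6 males spread from 2585 to 18864 CPM.

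Elovl3 was the member that separated the sexes. In B6 females its level was 11.2, 13.4, 8.83, 4.45 and 8.93 CPM in mice 1 to 5, and in B6 males it was 534, 549.9, 1262, 689 and 750.0 CPM. In C3 females it was 3.74, 1.75, 2.80, 5.95 and 2.52 CPM, and in C3 males 337, 595, 544, 649.6 and 356 CPM. Every male liver of either strain was above every female liver, and the lowest male value was far above the highest female value.

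Elovl3 was 80.1-fold lower in B6 females than in B6 males (log2 fold change -6.32, SE 0.35, adjusted p = 1.4e-10) and 156-fold lower in C3 females than in C3 males (log2 fold change -7.28, SE 0.37, adjusted p = 4.4e-11). Within the 3 pools the log2 difference lay between -6.66 and -5.91 in B6 and between -8.16 and -6.51 in C3. By size of the change Elovl3 stood at rank 20 of the 427 genes called lower in B6 females and at rank 11 of the 382 called lower in C3 females. The difference between the strains in this sex effect was not called (log2 difference -0.96, SE 0.42, adjusted p = 0.26). As these are whole livers, fewer cells of a type and less RNA per cell cannot be told apart.

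Elovl3 was the single member called in each sex comparison, that is 1 of 9, where 6.34% of all genes tested were called in B6 (3.12% lower in females) and 6.9% in C3 (2.79% lower in females). The median log2 fold change of the members was -0.06 in B6 and 0.36 in C3, and that of all genes was 0.00 and 0.01. Scd1 in B6 and Fads1 in C3 passed the fold threshold alone, and Elovl1 met neither threshold. Elovl1 was lower in females by a similar amount in both strains, at 22.7 ± 3.33 against 30.8 ± 3.64 CPM in B6 (log2 fold change -0.44, SE 0.10, adjusted p = 0.0026) and 29.9 ± 4.47 against 40.3 ± 3.46 CPM in C3 (-0.46, SE 0.10, adjusted p = 0.0019). The C3 groups did not overlap for Elovl1, and neither value met the call, although without C3 female 4 the C3 value did (-0.53, adjusted p = 0.00084).

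Fads1, the later of the front-end desaturases, went the other way. It measured 775, 547, 554, 531 and 683 CPM in the C3 females and 482, 494, 463, 368 and 507 CPM in the C3 males, so that every female was above every male, with a log2 fold change of 0.50 (SE 0.12, adjusted p = 0.0035), short of the call. In B6 the groups overlapped, at 481 ± 93.0 CPM in females and 361 ± 84.1 CPM in males (0.42, SE 0.12, adjusted p = 0.011). Groups of 3 members did not overlap between the sexes in C3, namely Elovl1, Elovl3 and Fads1, where 13.1% of all genes had groups that did not overlap.

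Scd1 had the largest coefficient of variation of the 9 members in each group, at 70.9%, 71.1%, 52.2% and 33.6% of the mean CPM in B6 females, B6 males, C3 females and C3 males. Its level was 1347, 1587, 2907, 6177 and 1958 CPM in B6 females and 18864, 10694, 2585, 8783 and 4177 CPM in B6 males. The male mean was higher, but the ranges overlapped, with females 3 and 4 above male 3 and female 4 also above male 5. The log2 fold change was -1.68 (SE 0.38, adjusted p = 0.0026), which missed the call. Without female 4 it was -2.09 and called (adjusted p = 0.00032), and without male 5 it was -1.92 and called (adjusted p = 0.00074).

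In C3 the mean level of Scd1 differed by less than the spread between mice, at 9836 ± 5130 CPM in females and 9882 ± 3323 CPM in males (log2 fold change 0.18, SE 0.37, adjusted p = 0.73). The sex effect on Scd1 differed between the strains by 1.85 on the log2 scale (SE 0.53, unadjusted p = 0.0026, adjusted p = 0.068), and this was not called.

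In the test of the difference between strains in the sex effect, edgeR called 0 of 9 members, where 0.401% of all genes were called, and DESeq2 also called 0. At an unadjusted p under 0.05 there were 5 members, Elovl3, Elovl6, Fads2, Scd1 and Scd2, where 16.1% of all genes passed that level. For Elovl6, Fads2, Scd1 and Scd2 the female level relative to the male level was higher in C3 than in B6, with log2 differences of 0.84, 0.40, 1.85 and 0.44. The median over the 9 members was 0.40, and over all genes it was 0.01. The comparison of each strain's sex effect uses the same 20 mice as the comparisons above.

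**Figure D2:**
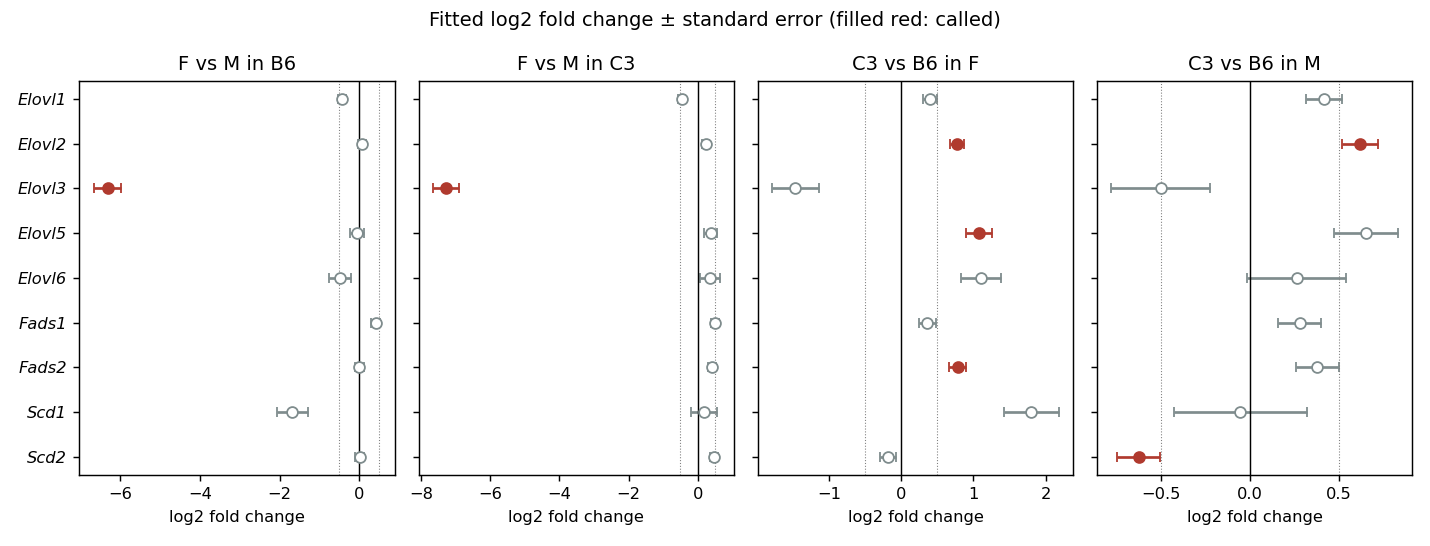
Fitted log2 fold change with its standard error for the 9 genes in females against males of each strain and in C3 against B6 mice of each sex (5 mice per group, dotted lines at 0.5 and -0.5, horizontal scales that differ between the panels). Filled red points are the genes called, namely Elovl3 in both sex comparisons, Elovl2, Elovl5 and Fads2 in C3 against B6 females, and Elovl2 and Scd2 in C3 against B6 males.

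Between the strains, Elovl2, Elovl5 and Fads2 were called higher in C3 than in B6 females, which is 3 of 9 members called and all in that direction, where 9.4% of all genes were called and 4.63% were called higher. The median log2 fold change was 0.78 over the members and 0.02 over all genes. In males 2 of 9 members were called, Elovl2 higher and Scd2 lower in C3, where 9.64% of all genes were called. The reads of both strains were aligned to a B6-based genome, and any effect of C3 variants on mapping was not tested.

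The windows of 250 bases before the start of the locus for the 3 genes called higher in C3 females are shown because a difference between strains in mRNA can be followed up there. They were taken from RefSeq (GRCm38.p6) and matched letter for letter to mm9, and therefore give the B6-based reference and not the C3 sequence. Matches to a CCAAT box (CCAAT) or an E-box (CACGTG), searched on both strands, are in capitals. Each is printed from 5′ to 3′ along the gene's strand.
Elovl2, chr13:41315773-41316022, reverse strand: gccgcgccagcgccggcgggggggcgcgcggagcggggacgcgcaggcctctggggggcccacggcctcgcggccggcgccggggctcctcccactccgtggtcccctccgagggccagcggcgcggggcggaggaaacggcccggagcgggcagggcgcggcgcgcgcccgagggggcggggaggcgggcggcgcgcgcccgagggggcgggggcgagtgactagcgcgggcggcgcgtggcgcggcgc
Elovl5, chr9:77764922-77765171, forward strand: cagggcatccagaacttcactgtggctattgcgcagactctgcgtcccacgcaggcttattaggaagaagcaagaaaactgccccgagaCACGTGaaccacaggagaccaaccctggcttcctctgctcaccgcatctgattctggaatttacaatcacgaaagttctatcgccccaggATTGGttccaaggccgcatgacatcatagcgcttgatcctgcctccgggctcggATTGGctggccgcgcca
Fads2, chr19:10175994-10176243, reverse strand: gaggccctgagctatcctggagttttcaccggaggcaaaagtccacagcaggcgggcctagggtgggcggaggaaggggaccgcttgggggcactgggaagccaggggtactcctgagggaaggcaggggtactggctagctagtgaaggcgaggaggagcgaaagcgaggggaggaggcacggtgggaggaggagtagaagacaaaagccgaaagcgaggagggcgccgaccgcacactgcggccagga

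The Elovl5 window holds CCAAT boxes, read on the opposite strand, that begin 71 and 17 bases before the start site, and an E-box 161 bases before it. The Elovl2 and Fads2 windows hold neither, nor does the window of a second annotated start site of Elovl2, which is not shown. Over 32851 mouse promoter windows of this length 33.8% hold a CCAAT box and 6.02% an E-box. The Elovl2 window is 87.2% G and C and the Fads2 window 64.8%, against 55.6% for Elovl5 and a median of 52.4% over all windows. Of the 9 genes, 5 had an entry in the table of promoters, namely Elovl1, Elovl2, Elovl5, Elovl6 and Fads2, with 7 windows because Elovl1 and Elovl2 each have 2 annotated start sites. Elovl1 holds a CCAAT box 35 bases before the start site at the start of its locus. None of the 7 windows held a sterol regulatory element (TCACNCCAC), a STAT element (TTCNNNGAA) or a TATA box (TATAAA), and these are present in 1.05%, 7.02% and 12.4% of all windows. A match is a description of letters and not of a bound site.

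Elovl2, which extends long polyunsaturated chains towards docosahexaenoic acid, was the member called in both sexes. It lies on the reverse strand of chromosome 13 of mm9 from 41277751 to 41315772. Its level was 503, 483, 341, 473 and 379 CPM in B6 females and 847, 678, 913, 601 and 696 CPM in C3 females. In males it was 417, 374, 455, 437 and 388 CPM in B6 and 601, 595, 603, 646 and 672 CPM in C3. Every C3 liver was above every B6 liver of either sex.

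The log2 fold change of Elovl2 was 0.78 (SE 0.10, adjusted p = 5.8e-06) in females and 0.62 (SE 0.10, adjusted p = 8.5e-05) in males. Within the pools its range was 0.61 to 1.31 for females and 0.53 to 0.65 for males. Females and males of a strain did not differ by the call (log2 fold change 0.07, SE 0.10, adjusted p = 0.59 in B6 and 0.23, SE 0.10, adjusted p = 0.072 in C3). When the threshold of 0.5 was tested inside the model with edgeR's glmTreat, neither Elovl2 value was called (adjusted p = 0.020 and 0.32). The call was also lost in males without pool in the model (0.59, adjusted p = 0.0012) and in females when edgeR was fitted to the 2 groups compared alone (0.77, adjusted p = 0.0015).

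Elovl5, which extends the products of Fads2, is on the forward strand of chromosome 9 from 77765172 to 77832326. It measured 627, 560.1, 626, 750.3 and 528 CPM in B6 females and 1565, 1029, 1227, 1279 and 1526 CPM in C3 females, with no overlap. The log2 fold change was 1.08 (SE 0.18, adjusted p = 0.00012), and within the pools it lay between 0.92 and 1.32. With glmTreat it was not called (adjusted p = 0.0082). In males it was 1061, 711, 363, 721 and 448 CPM in B6 and 1199, 1224, 1030.1, 869.8 and 1110.2 CPM in C3. The male groups overlapped through B6 male 1, and the log2 fold change of 0.65 (SE 0.18, adjusted p = 0.0089) was not called. The difference between the sexes in this strain effect was 0.43 on the log2 scale (SE 0.25, adjusted p = 0.43).

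Fads2, the desaturase that opens the polyunsaturated route, lies beside Fads1 on chromosome 19 (reverse strand, 10138654 to 10175993, with 81384 bases to Fads1). It measured 354, 383, 528, 708 and 463 CPM in B6 females and 1192, 565, 661, 819.6 and 1004 CPM in C3 females. The groups overlapped through B6 female 4 and C3 females 2 and 3, and both of these C3 livers and B6 females 1 and 2 were sequenced in pool 3. The log2 fold change, with pool in the model, was 0.78 (SE 0.12, adjusted p = 4.9e-05), with 0.66 to 1.17 within the pools, and without pool in the model it was not called (0.80, adjusted p = 0.028). It was not called with glmTreat (adjusted p = 0.047) or with edgeR on the 2 groups alone (0.78, adjusted p = 0.0016) either. Its neighbour Fads1 was 1.28-fold higher in C3 females (log2 fold change 0.36, SE 0.12, adjusted p = 0.025), which was not called. In males Fads2 differed by 0.38 (SE 0.12, adjusted p = 0.020), also not called.

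Scd1, Elovl6 and Elovl3 differed more in fold than these between the females of the strains but missed the call. Scd1 measured 16305, 7076, 4158, 7532 and 14108 CPM in C3 females, with a log2 fold change of 1.80 (SE 0.38, adjusted p = 0.0012) against B6 females. Elovl6, which makes stearate from palmitate, measured 69.8, 62.8, 91.9, 172 and 68.7 CPM in B6 females and 290.4, 209, 93.1, 125 and 289 CPM in C3 females (1.10, SE 0.28, adjusted p = 0.0051). For Elovl3 the log2 fold change was -1.46 (SE 0.32, adjusted p = 0.0017).

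B6 female 4 had the highest Scd1, Scd2, Elovl6, Elovl5, Fads1 and Fads2 and the lowest Elovl3 of its group. Without this liver all of Scd1 (2.24, adjusted p = 0.00012), Elovl6 (1.43, adjusted p = 0.00030) and Elovl3 (-1.66, adjusted p = 0.00036) were called, which gave 6 of 9 members. Elovl3 was also called without C3 female 4 (-1.80, adjusted p = 0.00026), by DESeq2 (-1.44, adjusted p = 0.00027), which called 4 members in all, and by limma on log2(TPM + 0.1) (-1.56, adjusted p = 0.00078). Scd1 was also called when genes of low count were kept in the edgeR test (1.80, adjusted p = 0.00072).

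In males Scd2, a stearoyl-CoA desaturase known mainly from brain and little expressed in adult liver, was called lower in C3. It measured 8.30, 6.06, 6.37, 6.44 and 6.32 CPM in B6 males and 4.14, 5.73, 3.78, 3.71 and 5.10 CPM in C3 males, from 107 to 261 counts per library. The groups did not overlap, although the lowest B6 and the highest C3 male were close. The log2 fold change was -0.62 (SE 0.12, adjusted p = 0.00049). It was no longer called without any 1 of B6 males 1, 3 and 4 or C3 males 1, 3 and 4, with values from -0.61 to -0.55. It was also not called with glmTreat (adjusted p = 0.40), without pool (-0.58, adjusted p = 0.0042), with edgeR on the 2 groups alone (-0.64, adjusted p = 0.0056) or with limma on log2(TPM + 1) (-0.46, under the fold threshold). In females it was -0.18 (SE 0.11, adjusted p = 0.25). Scd1 and Scd2 are close copies 87587 bases apart on chromosome 19, and read pairs that fit several genes were not counted, so the split between them is uncertain.

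Markers of other liver cells also differed between the strains. Of 6 Kupffer cell markers 4 were called lower in C3 females and 3 in C3 males, and the sum of the 6 was 375 to 523 TPM in B6 females against 251 to 385 TPM in C3 females, and 223 to 362 TPM in B6 males against 154 to 233 TPM in C3 males. The 3 called in both sexes were Adgre1, Vsig4 and Csf1r, and Clec4f was called in females. Of 6 hepatocyte markers 2, Apoa1 and Trf, were called higher in C3 in each sex. The stellate cell marker Rgs5 was called higher in C3 in both sexes (log2 fold change 1.07 in females and 1.44 in males), and in females the bile duct marker Sox9 was called higher (0.85) and the endothelial marker Lyve1 (-0.98) and the pancreatic acinar marker Cela2a lower. Cela2a was the only 1 of 6 acinar markers tested, with 10 to 30 counts in each B6 female and 0 in every C3 female. The other acinar markers had 0 or 1 count in each female. Rgs5 and Sox9 did not stand for their lists. The median log2 fold change of the 6 stellate cell markers was -0.38 in females and -0.19 in males. In females it was -0.01 for the 5 bile duct markers tested and -0.14 for the 6 endothelial markers. Of 6 lymphocyte markers 5 were tested, and edgeR called 0 in each sex, although in males DESeq2 called 2. Their median log2 fold change was -0.61 in females and -1.63 in males. The sum of the 6 was low, at 3.62 to 6.00 TPM in B6 females and 2.47 to 3.74 TPM in C3 females. In males it was 1.56 to 5.51 TPM in B6 and 0.682 to 1.07 TPM in C3. The part of these marker differences in the strain differences of Elovl2, Elovl5, Fads2 and Scd2 was not tested.

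Between the sexes edgeR and DESeq2 each called 0 of the 6 hepatocyte markers in either strain. At an unadjusted edgeR p under 0.05, which many of all genes tested passed, there were 4 of these 6 markers in each strain. The sum of the 6 was 129633 to 155724 TPM in females and 97595 to 119284 TPM in males of B6. In C3 it was 175212 to 197884 TPM in females and 135920 to 157406 TPM in males. This sum did not stand for the list, as most of it was Alb (mean of 94241 TPM in B6 females and 65382 TPM in B6 males). The median log2 fold change of the 6 hepatocyte markers was 0.04 in B6 and -0.07 in C3. The bile duct marker Sox9 was called lower and the Kupffer cell marker Vsig4 higher in females of both strains. Sox9 did not stand for its list, as the median log2 fold change of the 5 bile duct markers tested was 0.04 in B6 and 0.45 in C3. For the 6 Kupffer cell markers the median was 0.48 in B6 and 0.43 in C3. For the 5 lymphocyte markers tested it was 0.40 in B6 and 1.51 in C3, with 0 called by edgeR or DESeq2. The adipocyte marker Cfd had 0 counts in every female and 23 to 114 counts in each B6 male, while C3 males also had 0 counts. The only other adipocyte marker tested, Fabp4, was not called (log2 fold change -0.20 in B6 and 0.10 in C3, edgeR adjusted p = 0.33 and 0.65). The part of these marker differences in the sex difference of Elovl3 was not tested.

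The make-up of the elongase family was read from shares of its summed TPM. Summed over the 5 elongases, the level in B6 was 807 ± 93.0 TPM for females and 1600 ± 229 TPM for males, and in C3 it was 1512 ± 215 TPM for females and 1674 ± 120 TPM for males (n = 5 each). Elovl3 made up 1.40% ± 0.535 of this sum in B6 females and 50.7% ± 14.0 in B6 males, and 0.252% ± 0.134 in C3 females and 30.4% ± 7.45 in C3 males. Elovl5 made up 61.0% ± 3.43 in B6 females and 30.9% ± 12.7 in B6 males, and 66.4% ± 3.82 in C3 females and 45.5% ± 6.50 in C3 males, so that it was the largest mean share in C3 males as well as in both female groups. These are shares of mRNA and were described without a test. Among the 4 desaturases Scd1 made up 51.9% ± 8.87 in females and 77.0% ± 9.28 in males of B6, and 71.0% ± 7.53 and 76.4% ± 4.50 in those of C3.

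**Figure D3:**
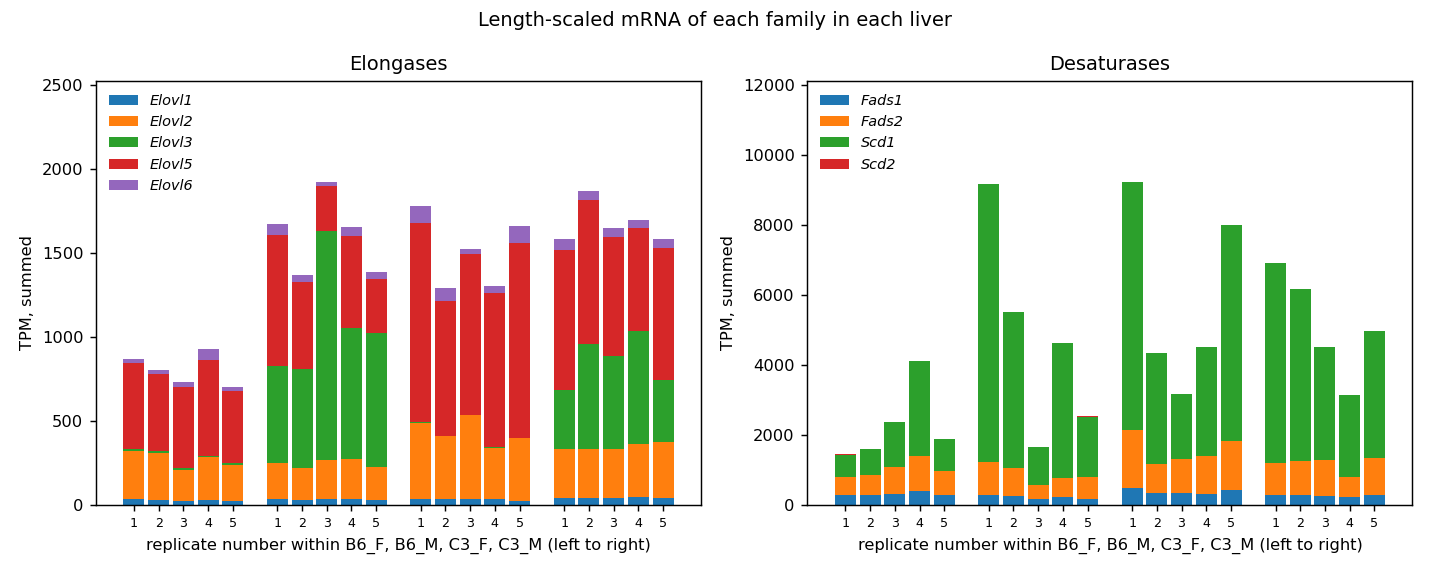
Summed TPM of the 5 elongases (left) and the 4 desaturases (right) in each of 20 livers, stacked by gene, with the 5 mice of B6 females (B6_F), B6 males (B6_M), C3 females (C3_F) and C3 males (C3_M) from left to right. The Elovl3 segment is 34.6% to 70.9% of the elongase bar in B6 males and at most 2.02% in females, and the desaturase bars run from 1436 to 9234 TPM, with Scd1 at 44.0% to 66.1% of the bar in B6 females and 58.9% or more in the other groups.

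Within groups, the levels of some members varied together between mice. How often pairs of other genes do so in these livers was not computed, so the count below has no share over all genes beside it. The log2 CPM of each pair of members was correlated over the 20 livers after the group and pool means were removed, and 9 of 36 pairs had an adjusted p under 0.05, all with a positive r (two-sided permutation test with 100000 permutations within groups, Benjamini-Hochberg over the 36 pairs). Fads1 and Fads2 had the highest value, r = 0.911 (rho = 0.880, permutation p = 4e-05, adjusted p = 0.0009, and r = 0.869 without the 2 livers farthest from the median). Scd1 and Elovl6 followed the same pattern (r = 0.843, rho = 0.886, permutation p = 5e-05, adjusted p = 0.0009, r = 0.805 without the 2 livers), as did Scd1 and Fads1 (r = 0.887, rho = 0.862, permutation p = 0.0011, adjusted p = 0.0079, r = 0.823 without them). In each pair these 2 livers were those farthest from the median of 1 gene alone, so livers extreme only in the other gene stayed in.

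The other pairs counted were Elovl5 with Fads1 (r = 0.829), Scd1 (0.818) and Fads2 (0.777), Fads2 with Scd1 (0.741), Elovl6 with Fads1 (0.71) and Elovl2 with Fads2 (0.666), with permutation adjusted p from 0.0079 to 0.029. Their r without the 2 farthest livers was 0.632 to 0.818. Elovl3 had negative r with 7 of the other 8 members, from -0.588 with Fads1 (rho = -0.439, permutation p = 0.020, adjusted p = 0.065) to -0.084 with Scd2, and no pair with Elovl3 passed. Without C3 female 3 there were 13 pairs, and without B6 female 4 or C3 female 4 there were 6. With pool left in the values there were 16, of which 8 were among the 9.

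**Figure D4:**
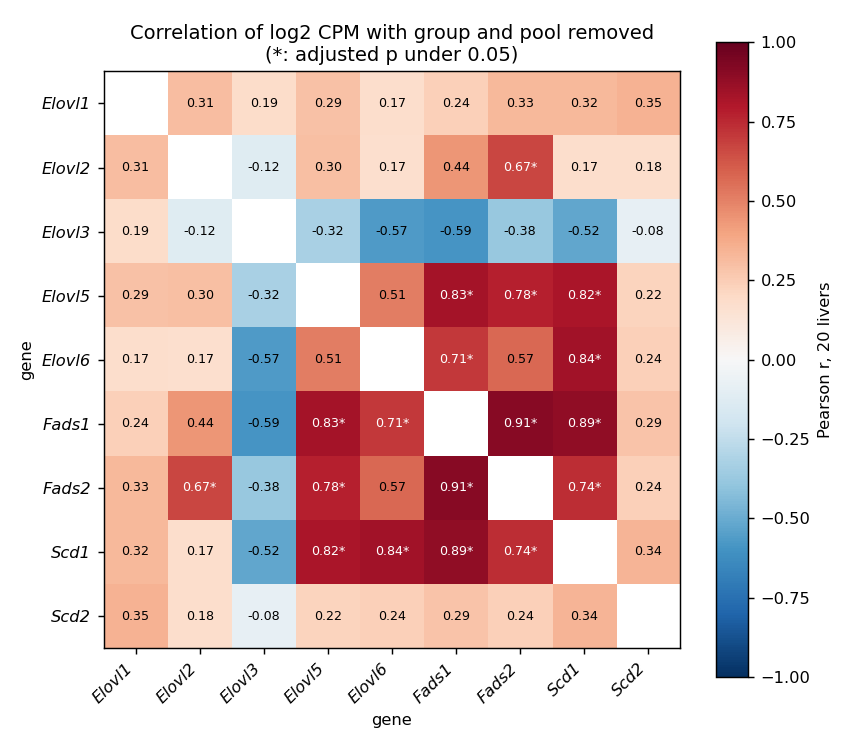
Pearson correlation of log2 CPM between the 9 genes over 20 livers after removal of group and pool means, with an asterisk where the permutation adjusted p over 36 pairs is under 0.05. Scd1, Elovl5, Elovl6, Fads1 and Fads2 form a block of positive values up to 0.91, while the row of Elovl3 runs from -0.59 to 0.19.

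Over the 20 livers without such removal, where the 4 groups and 3 pools are shared by all genes, the genes most like Elovl3 in log2 CPM were Abcg2 (r = 0.987), a xenobiotic transporter, C6 (0.986), a complement component, and Mup3 (0.980), a major urinary protein. For example, Abcg2 was 39.8 ± 4.82 CPM in females and 140 ± 20.6 CPM in males of B6, and 33.2 ± 2.88 and 118 ± 13.0 CPM in those of C3. The gene most like Scd1 was Me1 (0.946), which makes NADPH for lipogenesis, and that most like Elovl6 was Acaca (0.901), which makes malonyl-CoA. The nearest genes were Cox18 for Elovl1 (0.914), Ackr1 for Elovl2 (0.940), Igsf3 for Elovl5 (0.914), Gm11437 for Fads1 (0.954), Csnk1g2 for Fads2 (0.941) and Map4k1 for Scd2 (0.876). These r describe a likeness of pattern over 20 livers and were not tested.

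The other genes of the pathway were read from lists. Counts at an unadjusted p under 0.05 are given beside 0 calls only to show that 0 calls is not absence of a difference. In the pairwise comparisons the share of all genes at that level is not given. Many genes passed even an adjusted p under 0.05, with totals given below, so these counts are not read as a result about the lists. Of 6 genes of malonyl-CoA and palmitate synthesis 1 was called lower in B6 females than males, Me1 (log2 fold change -1.10, SE 0.20), and 1 was called higher in C3 than B6 females, Acaca (0.82, SE 0.14). The list median in C3 against B6 females was 0.87, and Fasn, fatty acid synthase, measured 0.97 (SE 0.24, adjusted p = 0.0048). Between the sexes in C3 and between the strains in males edgeR and DESeq2 called 0 of the 6, with 3 and 1 at an unadjusted edgeR p under 0.05.

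Of the 6 partners of the elongation cycle, the keto-acyl reductase Hsd17b12 was called lower in B6 females than males (-0.70, SE 0.06). In C3 Hsd17b12 was also lower in females (-0.46, SE 0.06, edgeR adjusted p = 2.2e-05), short only of the fold threshold. The dehydratase Hacd2 was called lower in C3 in females (-0.53, SE 0.08) and males (-0.79, SE 0.08), and Tecr, the last enzyme of the cycle, was called higher in C3 females (0.62, SE 0.06). Between the sexes in C3 edgeR and DESeq2 called 0 of the 6, with 2 at an unadjusted edgeR p under 0.05. Of 4 electron carriers of the desaturases, Cyb5b (-0.53, SE 0.09) and Cyb5r3 (-0.60, SE 0.09) were called lower in B6 females than males, and Cyb5b was called lower in C3 in females (-0.54, SE 0.09) and males (-0.73, SE 0.09).

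Peroxisomal chain shortening is the step after elongation in the synthesis of docosahexaenoic acid. Of its 9 genes, 1 was called higher and 5 lower in B6 females than males, and 1 higher and 1 lower in C3 females. The transporter Abcd2 was 121 ± 30.3 CPM in B6 females and 8.78 ± 7.44 CPM in B6 males (3.95, SE 0.39) and was likewise higher in C3 females (4.29, SE 0.40). Scp2, which encodes sterol carrier protein and a peroxisomal thiolase, was lower in females by a similar size in both strains (-1.55 and -1.53, SE 0.09 each). The thiolase Acaa1b was called lower in C3 than in B6 males (-1.23, SE 0.13).

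Of 7 acyl-CoA synthetases, Acsl1 was called lower in B6 females than males (-0.53, SE 0.08). Acsl6 was called lower in C3 females, which had 0 or 1 count each, than in C3 males, which had 10 to 26 counts. Among 10 transcription regulators of lipogenesis, Insig2, which retains SREBP in the endoplasmic reticulum, was called lower in B6 females than males (-0.90, SE 0.10) and higher in C3 than B6 females (0.74, SE 0.10). Between the sexes in C3 and between the strains in males edgeR and DESeq2 called 0 of these 10, with 7 and 2 at an unadjusted edgeR p under 0.05. Of 5 phospholipid acyltransferases edgeR and DESeq2 called 0 in each comparison, with 2 or 3 at an unadjusted edgeR p under 0.05. Of the 8 other members of the elongase and desaturase families 5 were tested, and 1 was called, Fads6, lower in B6 females than males (-0.54, SE 0.07). In the test of the difference between strains in the sex effect edgeR called 0 of the 52 genes tested in these lists and DESeq2 called 3. Of the 52 genes 25 had an unadjusted edgeR p under 0.05, where 16.1% of all genes passed that level.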

How the data were processed

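RNA-seq of 20 mouse livers was analysed. The authors trimmed reads with cutadapt 1.9.1, aligned them to mm9 with STAR 2.5.1b and counted read pairs of stranded, ribosome-depleted total RNA on RefSeq genes with featureCounts (Subread 1.5.0-p1), leaving out multimapping and multi-overlapping reads. The authors deposited these counts without normalization. The authors also deposited TPM values, whose gene lengths are not defined in the sources used here. Column headers of symbol and identifier are exchanged and were read by content.

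Counts were fitted in R 4.3.3 with edgeR 4.0.16 (filterByExpr, TMM, quasi-likelihood test with terms for group and sequencing pool in all 20 libraries). SE is the log2 fold change divided by the root of F. Log2 CPM used a prior count of 2. On simulated data of this design (females against males in B6, 13550 genes) 150 of 200 changed genes were called, with 0 false calls. The simulated counts held no pool effect, and the changed genes differed by 1 or 2 on the log2 scale. Smaller changes and pool effects were therefore not checked. Alternatives used DESeq2 1.42.0 and limma 3.58.1 on log2(TPM + 1) and log2(TPM + 0.1), among other settings. The members, gene lists and tests were chosen with earlier results of these data known. All 9 members are named, and of each list the 2 genes called with the largest change in each pairwise comparison. Also named are the gene or, for Elovl3, 3 genes most correlated with each member, and marker genes called. Fabp4 is named beside Cfd, and Alb for its part in a sum. Other marker genes at 0 in a group are not named. A gene of the peroxisomal list that this rule names is not reported here. The correlation with palmitate synthesis genes was added after the data were seen. The mice are separate biological replicates. Counting precision follows from depth, at 27370921 to 46835745 counts per library, and covers counting error only.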

Additional observations from a re-analysis of the deposited data

Results flagged for a closer look

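In 4 of the 36 sets of 5 mice (9 genes in 4 groups) the most extreme mouse was separated from the others by more than Dixon's limit, and chance alone does this in about 1 of 20 sets. Elovl6 in B6 female 4 was 172 CPM, with the next mouse at 91.9 CPM. Elovl6 in C3 male 1 was 196 CPM, with the next at 164 CPM. Scd2 in B6 male 1 was 8.30 CPM, with the next at 6.44 CPM. Fads2 in C3 male 4 was 450.4 CPM, with the next at 725 CPM. B6 female 4 is the liver whose removal adds Scd1, Elovl6 and Elovl3 to the calls between the strains in females, and B6 male 1 is among the 6 males without any 1 of which Scd2 was no longer called.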

How the results depend on the processing

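Elovl3 was called between the sexes in both strains under every alternative run, with log2 fold changes from -6.34 to -6.10 in B6 and -7.30 to -6.88 in C3. An adjusted p under 0.05 with no fold threshold raised the calls over all genes, with totals given below. At that setting members called rose to 4 and 5 in the sex comparisons in B6 and C3, and to 8 and 5 in the strain comparisons in females and males. They fell to 0 in both strain comparisons with glmTreat, to 1 in both with a fit of the compared groups alone, and in males to 0 without pool and to 1 with limma on log2(TPM + 1). Leaving out each mouse in turn gave 1 to 2, 1 to 2, 3 to 6 and 1 to 2 members in these 4 comparisons, and 6 to 13 pairs. Pairs rose to 16 with pool kept. Mice with the same number did not deviate together, so the numbers do not pair them, and with a replicate block Scd1 was added to the calls between the sexes in B6 (2 members) and between the strains in females, and 6 pairs passed.

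Values that changed sign were small and not called: Fads2 between the sexes in B6 (-0.0034 DESeq2, -0.00045 RLE, -0.017 without pool, -0.10 to 0.073 without 1 mouse), Elovl5 there (0.11 with both limma fits, 0.0082 upper quartile, -0.19 to 0.11 without 1 mouse), Scd2 there (-0.033 to 0.081 without 1 mouse), Scd1 between the sexes in C3 (-0.0068 without pool), Scd1 between the strains in males (0.058 with both limma fits, 0.13 without pool, 0.016 with the replicate block, -0.28 to 0.22 without 1 mouse) and Elovl1 in the difference between strains (0.0077 without pool, 0.055 without 1 mouse). The cause was not tested. Over all genes, glmTreat called 294, 314, 525, 585 and 24 genes in the 4 comparisons and the interaction. In the same order an adjusted p under 0.05 called 4742, 5479, 4515, 4733 and 405 of the 13704 genes tested. DESeq2 called 181 in the interaction against 55. The fit without pool called 421, 482 and 815 in the first 3 and 20 in the interaction.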

Other observations

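The 6 genes of malonyl-CoA and palmitate synthesis varied between mice of a group together with some of the members. Of 54 pairs of a member and one of these genes 27 had an adjusted p under 0.05, all with a positive r (two-sided permutation test as above, Benjamini-Hochberg over the 54 pairs, added after the data were seen). Elovl6, Fads1 and Scd1 passed with 6 of 6 genes, Elovl5 with 5 and Fads2 with 4, and Elovl1, Elovl2, Elovl3 and Scd2 with 0. The share of such pairs over all genes was not computed here either.

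Scd1 and Me1, which supplies NADPH, had the highest value (r = 0.925, rho = 0.929, permutation p = 1e-05, the smallest that 100000 permutations give, adjusted p = 0.00054, r = 0.919 without the 2 livers farthest from the median of the member). Elovl6 and Thrsp, a regulator of lipogenesis, had r = 0.898 (rho = 0.868, permutation p = 0.00015, adjusted p = 0.0011, r = 0.880 without the 2 livers). Elovl3 had a negative r with each of the 6, from -0.585 with Acaca (rho = -0.505, permutation p = 0.048, adjusted p = 0.083, r = -0.449 without the 2 livers) to -0.349 with Acly.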
